A study of Mus musculus with 12 samples.

Results

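The common gamma chain cytokine receptors were followed through the sorted regulatory T cells (Tregs) as 7 genes, Il2ra, Il2rb, Il2rg, Il7r, Il4ra, Il21r and Il15ra, of 23352 gene symbols in the expression files. Each was found by its symbol, and all 7 passed the filter on low values. Common gamma chain receptors are built around a shared signalling chain encoded by Il2rg, which pairs with a chain that sets which cytokine is bound. The chain encoded by Il2rb serves both IL-2 and IL-15, and the chains encoded by Il2ra and Il15ra raise the affinity for IL-2 and IL-15. The chains encoded by Il7r, Il4ra and Il21r bind IL-7, IL-4 and IL-21. Binding activates JAK1 and JAK3 and then STAT proteins, and in Tregs IL-2 acting through STAT5 maintains Foxp3 and survival.

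The cells were Tregs from spleen and lymph nodes (LN) of female C57BL/6 mice, parted by surface CD62L into CD62Lhi cells, a fraction rich in resting Tregs, and CD62Llo cells, a fraction rich in activated Tregs. Mice of the group called HET were Foxp3YFP-Cre/Foxp3WT;Ezh2fl/+ and those of the group called KO were Foxp3YFP-Cre/Foxp3WT;Ezh2fl/fl, so all 4 groups carried the Cre and at least 1 floxed allele of Ezh2, the methyltransferase that places the repressive mark H3K27me3. The Cre was driven from 1 of the 2 Foxp3 alleles, on the X chromosome, and can act only in cells in which that allele is active. No group without Cre and no age is given in the labels. Of 12 libraries, the label of HET CD62Lhi replicate 3 sets it aside for low read counts and it was not used, which left 2 HET CD62Lhi libraries and 3 in each of the other groups. The labels do not say that libraries of a group came from separate mice, so p-values measure the spread between these libraries, which may be technical.

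The labels were checked against marker genes. Foxp3 stood at an FPKM (fragments per kilobase of transcript, scaled to the size of the library, a level corrected for gene length) of 75.9 to 96.8 over the 11 libraries. None of 8 Treg markers, a list that includes the member Il2ra, was at 0 throughout a group, which is a weak check of identity. Ezh2 was 12.5 and 12.7 in HET CD62Lhi against 9.15 to 11.5 in KO CD62Lhi, and 17.8 to 20.5 in HET CD62Llo against 12.5 to 16.8 in KO CD62Llo. These are values over the whole gene, exons outside the floxed part included, so they do not check the deletion itself, and neither genotype difference of Ezh2 passed the test (adjusted p of 1 and 0.113 in limma with Benjamini-Hochberg adjustment). Markers of other cells were present, with 8 B cell markers summing to 89.2 to 152 in CD62Lhi and 25.1 to 72.7 in CD62Llo libraries, and 9 myeloid markers to 16.3 to 43.5 and 38.6 to 315. Markers of CD8 T and NK cells, 9 in all, summed to 52.6 to 71.9 in CD62Lhi and 38.2 to 54.7 in CD62Llo libraries. They moved both ways, and in HET the mean of Cd8b1 went from 31.4 to 10.7 and that of Nkg7 from 18.3 to 33.3. In such bulk samples fewer cells of a type and less RNA per cell cannot be told apart.

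The 7 genes lie on 4 chromosomes, and 4 of them form neighbouring pairs (build mm10). Il2ra (chr2:11642791-11693194) and Il15ra (chr2:11705292-11733985) lie 12097 bases apart on the plus strand. Il4ra (chr7:125552281-125579474) and Il21r (chr7:125603428-125633570) lie 23953 bases apart, also on the plus strand. Il7r (chr15:9506158-9529876) and Il2rb (chr15:78480548-78495066) lie on the minus strand of chromosome 15, and Il2rg (chrX:101264386-101268206) on the minus strand of the X chromosome. All are annotated as protein coding. The promoters of the 2 pairs are shown because in each pair 1 gene differed between the CD62L fractions and its neighbour did not pass the test. They are the parts of the RefSeq promoter windows (GRCm38.p6) outside the annotated gene, at chr7:125552021-125552119 for Il4ra, chr7:125603179-125603428 for Il21r, chr2:11705043-11705289 for Il15ra and chr2:11642542-11642791 for Il2ra, all on the plus strand and 5′ to 3′, with CG dinucleotides, the sites of DNA methylation, in capitals.
Il4ra: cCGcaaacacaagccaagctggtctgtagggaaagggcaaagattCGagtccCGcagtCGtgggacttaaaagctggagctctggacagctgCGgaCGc
Il21r: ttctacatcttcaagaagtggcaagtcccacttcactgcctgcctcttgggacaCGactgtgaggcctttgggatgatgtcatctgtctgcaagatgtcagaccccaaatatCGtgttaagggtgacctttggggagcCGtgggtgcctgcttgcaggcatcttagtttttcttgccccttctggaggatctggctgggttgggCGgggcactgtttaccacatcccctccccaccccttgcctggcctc
Il15ra: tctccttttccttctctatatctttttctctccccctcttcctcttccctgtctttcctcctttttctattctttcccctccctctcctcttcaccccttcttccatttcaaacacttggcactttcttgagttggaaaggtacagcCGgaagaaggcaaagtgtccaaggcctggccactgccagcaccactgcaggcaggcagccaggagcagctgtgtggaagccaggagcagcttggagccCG
Il2ra: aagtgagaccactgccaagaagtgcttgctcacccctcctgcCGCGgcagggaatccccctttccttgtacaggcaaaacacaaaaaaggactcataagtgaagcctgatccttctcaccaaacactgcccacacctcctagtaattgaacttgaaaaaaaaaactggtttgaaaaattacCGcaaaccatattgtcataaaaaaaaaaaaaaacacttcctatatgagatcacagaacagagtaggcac

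Il4ra had the most CG dinucleotides of these 4 promoters. Over the whole window of 250 bases before the start it held 17 CG dinucleotides, more than 76.5% of 32851 promoters, whose median was 6. The window of Il21r held 4, that of Il2ra 3 and the one shown for Il15ra 2, while a second Il15ra start had 12. Windows were also searched on both strands for a STAT motif (TTCNNNGAA), a FOXO motif (GTAAACA) and an ETS motif (CCGGAAG), of which STAT and ETS matches can overlap each other. Il21r held 1 FOXO match (3.2% of all promoters hold one), the window shown for Il15ra 1 ETS match (6.9%), Il2rg 1 ETS match and Il7r 1 STAT match (7.0%), and the windows of Il4ra and Il2ra none. Windows were matched for 6 of the 7 genes, Il2rb being the other.

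The levels of the 7 genes kept much the same order in every library. Il2rg was the highest in all 11 libraries, from 338 to 378 FPKM, and Il2rb second, from 236 to 323, and these ranges do not overlap. Il2ra (108 to 138) and Il21r (88.3 to 114) came next and overlapped. Il4ra (40.3 to 73.0) and Il7r (22.9 to 57.4) followed and overlapped as well. Il15ra was the lowest in every library, from 6.08 to 8.95. Among the tested genes Il2rg stood at the 98.3 to 98.4 percentile of level and Il15ra at 33.1 to 39.9, so the shared chain was among the most abundant transcripts of these cells and the IL-15 alpha chain below the middle. The sum of the 7 levels was 971 ± 41.5 (SD, n = 2) in HET CD62Lhi, 971 ± 56.9 (n = 3) in HET CD62Llo, 943 ± 15.1 in KO CD62Lhi, against 947 ± 37.5 in KO CD62Llo, and the ranges of all 4 groups overlapped.

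**Figure D1:**
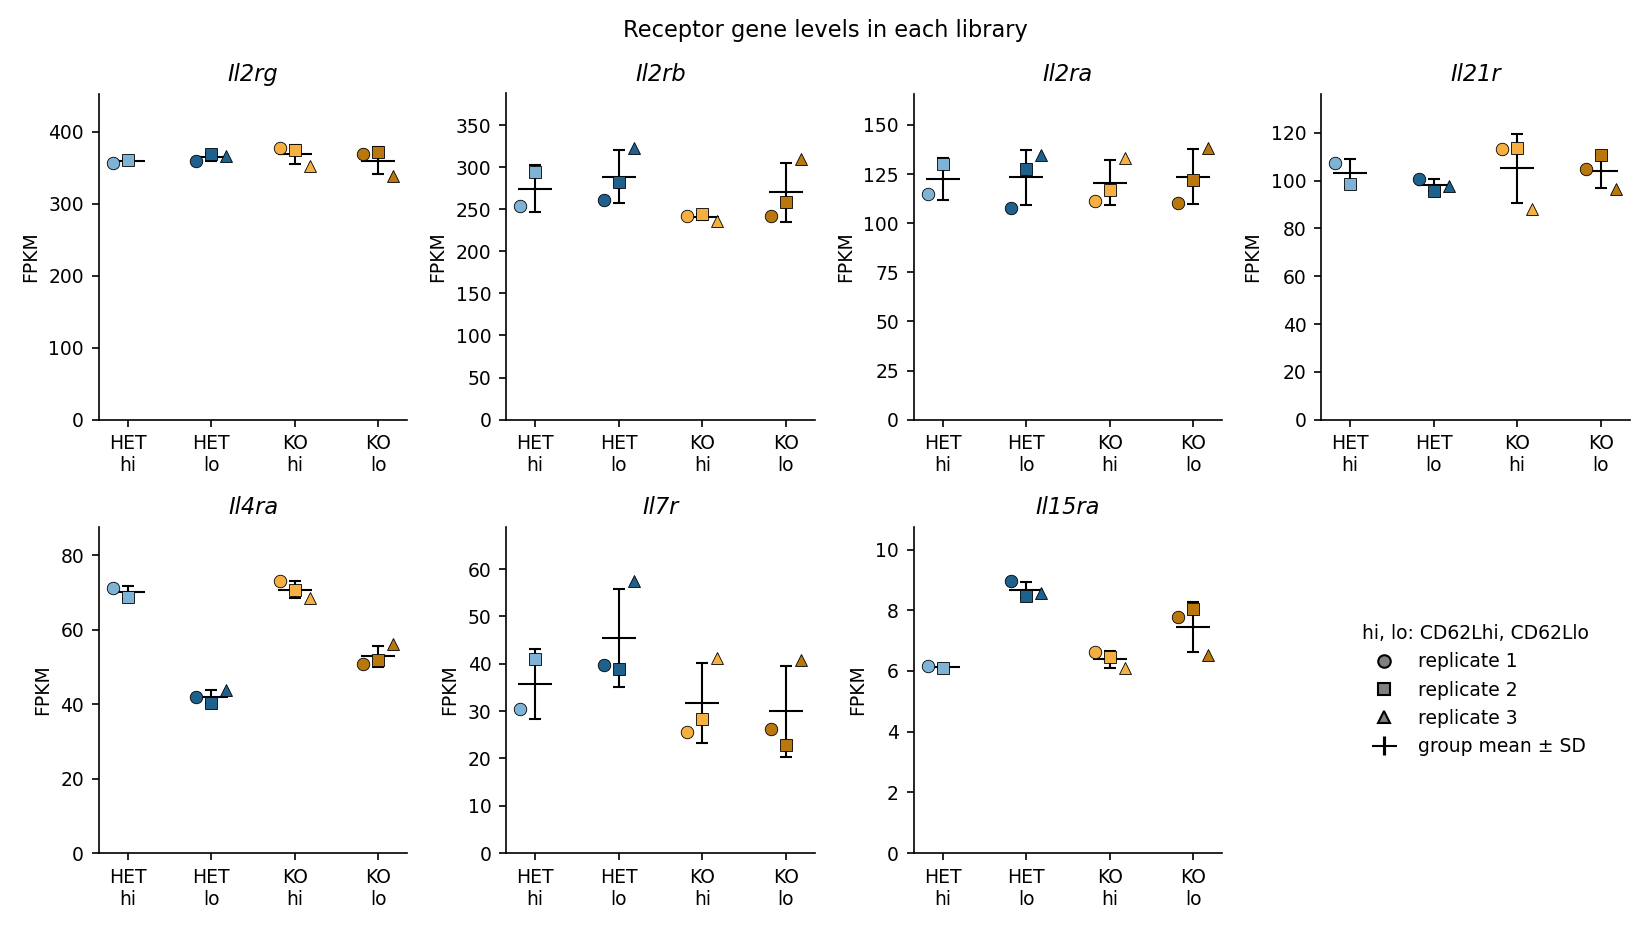
FPKM (vertical axis) of each of the 7 receptor genes in the 11 libraries, by group (horizontal axis, hi for CD62Lhi and lo for CD62Llo), with the marker shape for the replicate number and the bars for the group mean ± SD. Il4ra lies between 40.3 and 56.1 in the CD62Llo libraries and between 68.4 and 73.0 in the CD62Lhi libraries, while Il2rg stays between 338 and 378.

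The shared chains were compared first. Il2rg was 357 and 361 in HET CD62Lhi, 359, 369 and 366 in HET CD62Llo, 378, 375 and 353 in KO CD62Lhi, against 369, 372 and 338 in KO CD62Llo. All 4 groups overlapped, and Il2rg had the smallest variation of the 7 genes, a coefficient of variation of 3.14% over the 11 libraries. Il2rb was 254 and 294 in HET CD62Lhi, 260.4, 283 and 323 in HET CD62Llo, 242, 244 and 236 in KO CD62Lhi, against 242, 258 and 309 in KO CD62Llo. The KO CD62Lhi values lay together below both HET CD62Lhi values, and in the other comparisons the groups overlapped. The difference of Il2rb between KO and HET in CD62Lhi was -0.18 ± 0.12 on the log2(FPKM + 1) scale (value ± SE; 95% interval -0.45 to 0.08) and did not pass the test. On this scale a change of -1 is about a halving, and it understates the change of low genes. For Il2rg the 4 simple comparisons gave differences between -0.04 and 0.04 with 95% intervals within -0.15 to 0.16.

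Il2ra, whose product CD25 completes the high-affinity IL-2 receptor, showed no difference that passed the test. It was 115 and 130.1 in HET CD62Lhi, 108, 128 and 135 in HET CD62Llo, 111, 117 and 133 in KO CD62Lhi, against 110.4, 122 and 138 in KO CD62Llo. The groups overlapped throughout, and the group means lay between 121 and 124. The differences were 0.00 between the HET fractions (95% interval -0.28 to 0.28), 0.03 between the KO fractions (-0.22 to 0.28), -0.03 between the genotypes in CD62Lhi (-0.31 to 0.25) and 0.00 in CD62Llo (-0.25 to 0.25). Within groups, replicate 1 was the lowest in 4 of 4 groups and replicate 3 the highest in 3 of 3 groups that have one. The ratio of Il2rb to Il2ra was 2.23 ± 0.03 (SD, n = 2) in HET CD62Lhi, 2.34 ± 0.11 (n = 3) in HET CD62Llo, 2.01 ± 0.21 in KO CD62Lhi, against 2.18 ± 0.06 in KO CD62Llo.

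Il4ra fell from CD62Lhi to CD62Llo in both genotypes, with the larger value in HET. It encodes the IL-4 receptor alpha chain, which signals through STAT6 and serves IL-13 receptors as well. In HET it was 71.2 and 68.8 in CD62Lhi against 41.9, 40.3 and 43.9 in CD62Llo. The fractions did not overlap, and the difference was -0.72 ± 0.06 (95% interval -0.86 to -0.59, adjusted p = 4.1e-05 in limma with Benjamini-Hochberg adjustment). In KO it was 73.0, 70.6 and 68.4 in CD62Lhi against 50.8, 51.7 and 56.1 in CD62Llo. Again the fractions did not overlap, and the difference was -0.41 ± 0.05 (-0.53 to -0.29, adjusted p = 0.00093). The linear ratio of the means was 0.600 in HET and 0.749 in KO. All 21 alternatives to the fit kept both falls past the threshold.

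Il15ra changed the opposite way in HET. Its product holds IL-15 and presents it to neighbouring cells. In HET it was 6.17 and 6.10 in CD62Lhi and 8.95, 8.48 and 8.56 in CD62Llo, with no overlap, a rise of 0.44 ± 0.08 (95% interval 0.26 to 0.62, adjusted p = 0.0032 in limma). The highest upper bound that the authors deposited for these CD62Lhi values was 7.12, and the lowest lower bound for the CD62Llo values 7.46. Such bounds are given for each library alone and do not measure the spread between libraries. In KO Il15ra was 6.63, 6.46 and 6.08 in CD62Lhi and 7.77, 8.06 and 6.51 in CD62Llo. Replicate 3 of KO CD62Llo lay inside the CD62Lhi range, and the difference of 0.19 ± 0.07 did not pass the test (adjusted p = 0.112). Without that library the difference was 0.27 and passed (adjusted p = 0.013). The ratio of Il4ra to Il15ra was 11.4 ± 0.20 (SD, n = 2) in HET CD62Lhi, 4.85 ± 0.24 (n = 3) in HET CD62Llo, 11.1 ± 0.16 in KO CD62Lhi, against 7.20 ± 1.23 in KO CD62Llo.

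Il7r and Il21r showed no difference between fractions that passed the test. Il7r, the IL-7 receptor alpha chain, which is low on most Tregs compared with conventional T cells, was 30.5 and 40.9 in HET CD62Lhi, 39.8, 39.0 and 57.4 in HET CD62Llo, 25.5, 28.2 and 41.3 in KO CD62Lhi, against 26.1, 22.9 and 40.8 in KO CD62Llo. It had the widest spread of the 7 genes (a coefficient of variation of 28.4%), and the fractions overlapped in both genotypes. Its differences between the fractions were 0.33 ± 0.28 in HET (95% interval -0.30 to 0.96) and -0.09 ± 0.25 in KO (-0.66 to 0.48). Il21r, the receptor of the follicular helper cytokine IL-21, was 107 and 98.8 in HET CD62Lhi, 101, 95.7 and 97.9 in HET CD62Llo, 113, 114 and 88.3 in KO CD62Lhi, against 105, 111 and 96.5 in KO CD62Llo. The groups overlapped, and its differences were -0.07 ± 0.11 in HET (-0.31 to 0.17) and -0.01 ± 0.10 in KO (-0.22 to 0.21).

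Counted over the family, Il15ra rose and Il4ra fell in CD62Llo cells of HET, and Il4ra alone fell in KO. Over all 11431 genes tested, 27.7% passed in HET (18.8% higher and 8.88% lower) and 16.2% in KO (11.9% higher and 4.26% lower), so 2 and 1 of 7 receptor genes were shares close to these backgrounds. An unadjusted p under 0.05 was found for 2 of the 7 in each genotype, against 39.3% and 29.3% of all genes. Groups did not overlap for Il4ra and Il15ra in HET and for Il4ra in KO, against 53.9% and 34.8% of all genes. The median change of the 7 was 0.02 in HET and -0.01 in KO, beside 0.07 and 0.05 over all genes.

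**Figure D2:**
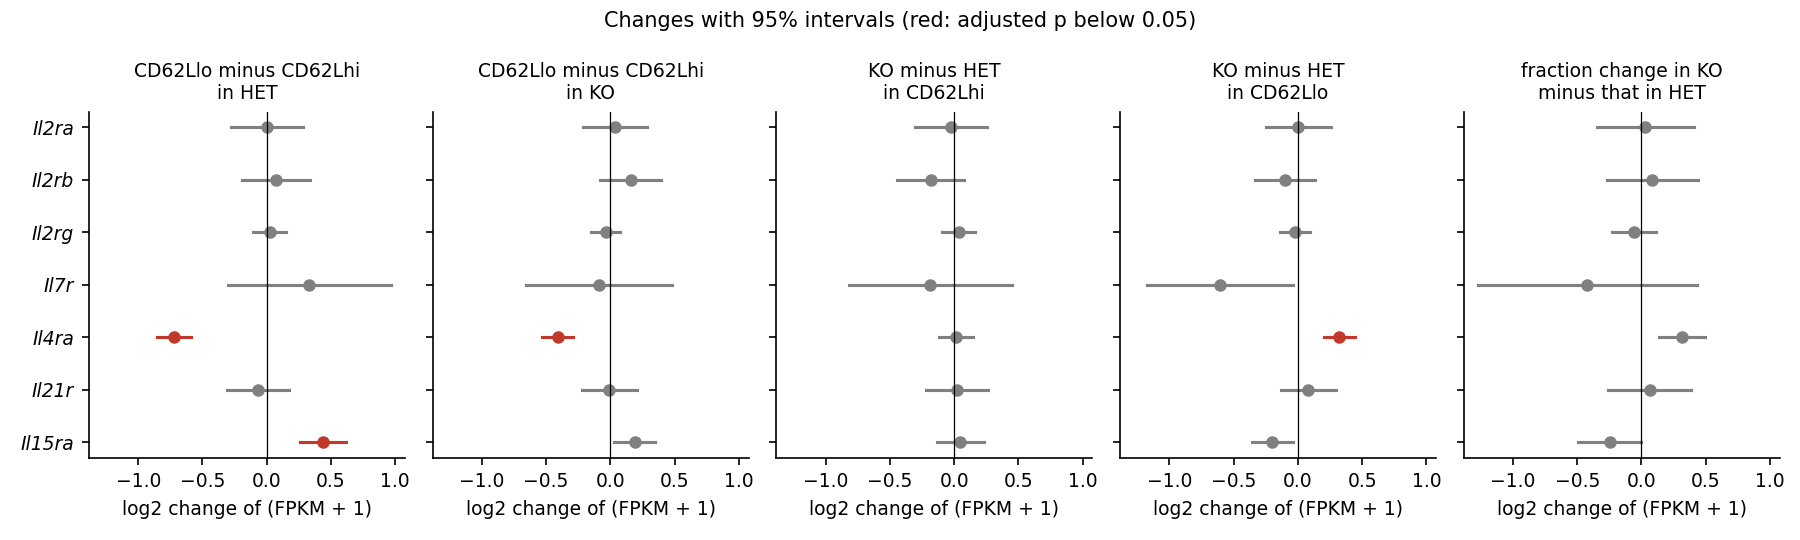
Difference on the log2(FPKM + 1) scale (horizontal axis) of each receptor gene in the 5 comparisons, with 95% intervals and in red those with an adjusted p below 0.05. Il4ra is red in both comparisons of fractions (-0.72 and -0.41) and between genotypes in CD62Llo (0.32), and Il15ra between the HET fractions (0.44).

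Markers of cell state and of other cells moved with the same comparisons. Of 8 resting T cell markers 7 fell between the HET fractions and 5 between the KO fractions, and of 8 activation markers 8 and 6 rose. Over all genes 8.88% fell and 18.8% rose in HET, and 4.26% fell and 11.9% rose in KO. The resting markers summed to 1547 to 1604 in HET CD62Lhi, 697 to 747 in HET CD62Llo, 1649 to 1778 in KO CD62Lhi and 1053 to 1210 in KO CD62Llo, which is also the order of Il4ra between the fractions. B cells express Il4ra, and of 8 B cell markers 5 fell between the HET fractions and 6 between the KO fractions, from sums of 92.7 and 112 to 25.1 to 38.0 in HET. Cd79a, a B cell receptor subunit, went from 28.1 ± 2.64 (SD, n = 2) to 3.33 ± 1.24 (n = 3) in HET. Within HET CD62Lhi, HET CD62Llo and KO CD62Llo the libraries had the same order by B cell sum and by Il4ra, as in KO CD62Llo, with sums of 28.7, 29.5 and 72.7 beside Il4ra at 50.8, 51.7 and 56.1. KO CD62Lhi was the exception, with the highest sum of all (152) in replicate 3 beside the lowest Il4ra of the CD62Lhi libraries (68.4). Myeloid cells express Il15ra, and 1 of 5 tested myeloid markers, Lyz2, rose in both genotypes, from 10.9 ± 2.85 to 55.4 ± 18.0 in HET. In KO CD62Llo the myeloid sums of 38.6, 174 and 315 had the same order as Il15ra, at 6.51, 7.77 and 8.06. In HET CD62Llo the sums of 55.6, 69.9 and 138 stood beside Il15ra at 8.56, 8.48 and 8.95, the highest of both in replicate 1 and the other libraries in reverse order. KO CD62Lhi also had another order, with sums of 19.3, 27.6 and 18.1 beside Il15ra at 6.63, 6.46 and 6.08. Between the genotypes in CD62Llo, the KO sums of 174 and 315 lay above every HET sum, while all Il15ra values were lower in KO. The part of other cells in the changes of Il4ra and Il15ra was not tested beyond these values.

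**Figure D3:**
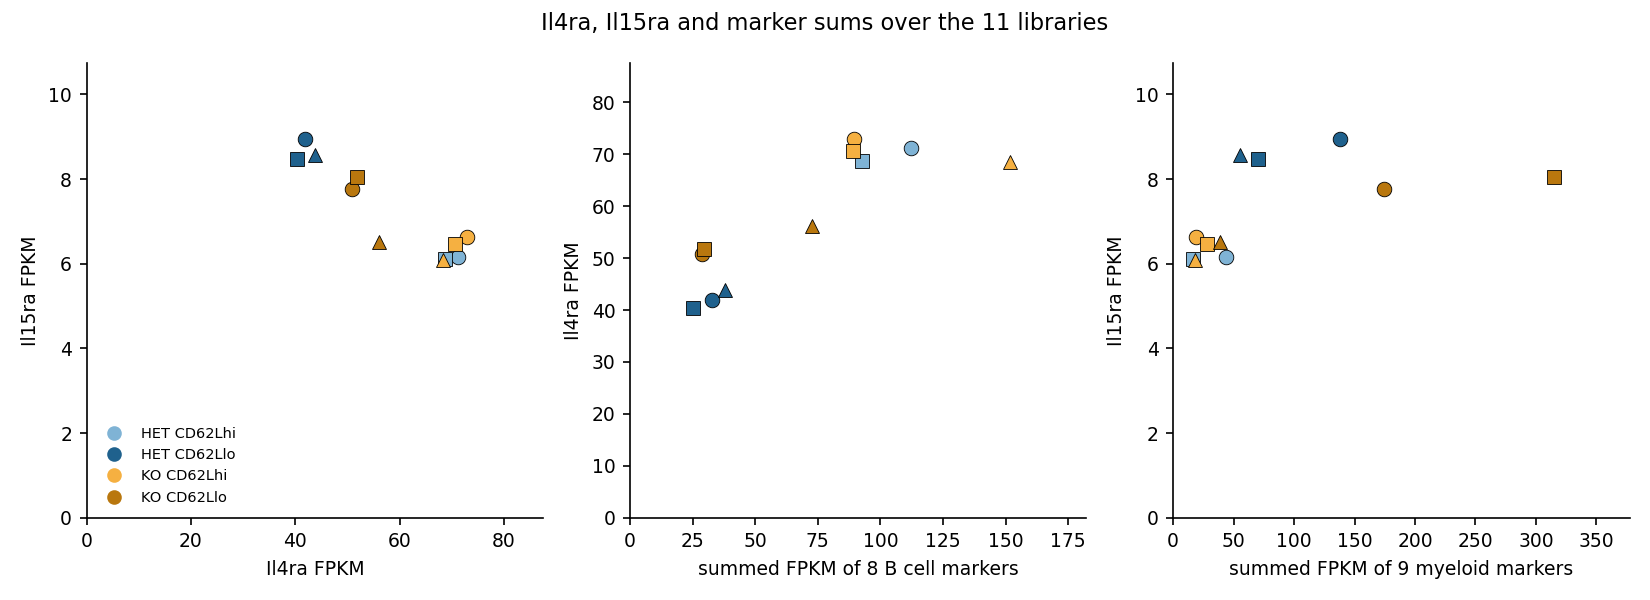
Il15ra against Il4ra (FPKM), Il4ra against the summed FPKM of 8 B cell markers and Il15ra against that of 9 myeloid markers, with 1 point per library, coloured by group and with the shape for the replicate number (circle 1, square 2, triangle 3). Il4ra has the order of the B cell sums within each group but KO CD62Lhi, where replicate 3 lies at 152 with Il4ra at 68.4. In KO CD62Llo Il15ra has the order of the myeloid sums, from 38.6 with Il15ra at 6.51 to 315 with Il15ra at 8.06. In HET CD62Llo and KO CD62Lhi it does not.

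Between genotypes, Il4ra was higher in KO than in HET within the CD62Llo fraction. The 3 KO values (50.8, 51.7 and 56.1) all lay above the 3 HET values (40.3, 41.9 and 43.9), a difference of 0.32 ± 0.05 (95% interval 0.21 to 0.44, adjusted p = 0.0119 in limma) or a ratio of means of 1.26. In CD62Lhi the genotypes overlapped, and the difference was 0.01 ± 0.06 (-0.12 to 0.15). The call in CD62Llo was lost without HET CD62Llo replicate 2 (0.30, adjusted p = 0.054) and in a fit of the 2 CD62Llo groups alone (adjusted p = 0.087, or 0.110 with a replicate block, 0.013 with that block in the fit of all 11 libraries). KO CD62Llo also had higher resting markers, 6 of 8 passing the test, against 1.36% of all genes higher. In KO CD62Llo replicates 1 and 2 the B cell marker sums of 28.7 and 29.5 lay within the HET CD62Llo range of 25.1 to 38.0, with Il4ra at 50.8 and 51.7, and in replicate 3 the sum was 72.7. The part of the resting state of the cells in this difference was not tested.

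No other receptor gene passed between the genotypes in CD62Llo. Il7r was lower in KO by its mean, 29.9 ± 9.52 (SD, n = 3) against 45.4 ± 10.4, but KO replicate 3 (40.8) lay above HET replicates 1 and 2 (39.8 and 39.0). The difference was -0.61 ± 0.25 (95% interval -1.17 to -0.04) with an unadjusted p of 0.039 and an adjusted p of 0.236 in limma. Within each replicate number the KO value was the lower, 26.1 against 39.8, 22.9 against 39.0 and 40.8 against 57.4. With the replicate number as a block the adjusted p was 0.018 in the fit of all 11 libraries and 0.068 in a fit of the CD62Llo groups alone. Il15ra was 7.44 ± 0.82 in KO against 8.67 ± 0.25 in HET without overlap, a difference of -0.20 ± 0.07 with an unadjusted p of 0.021 and an adjusted p of 0.172. Of the 7 genes 1 passed, upward, against 4.60% of all genes (1.36% higher and 3.25% lower), 3 had an unadjusted p under 0.05, against 18.9%, and groups did not overlap for 2, against 20.2%. The median difference of the 7 was -0.02, beside -0.03 over all genes.

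**Figure D4:**
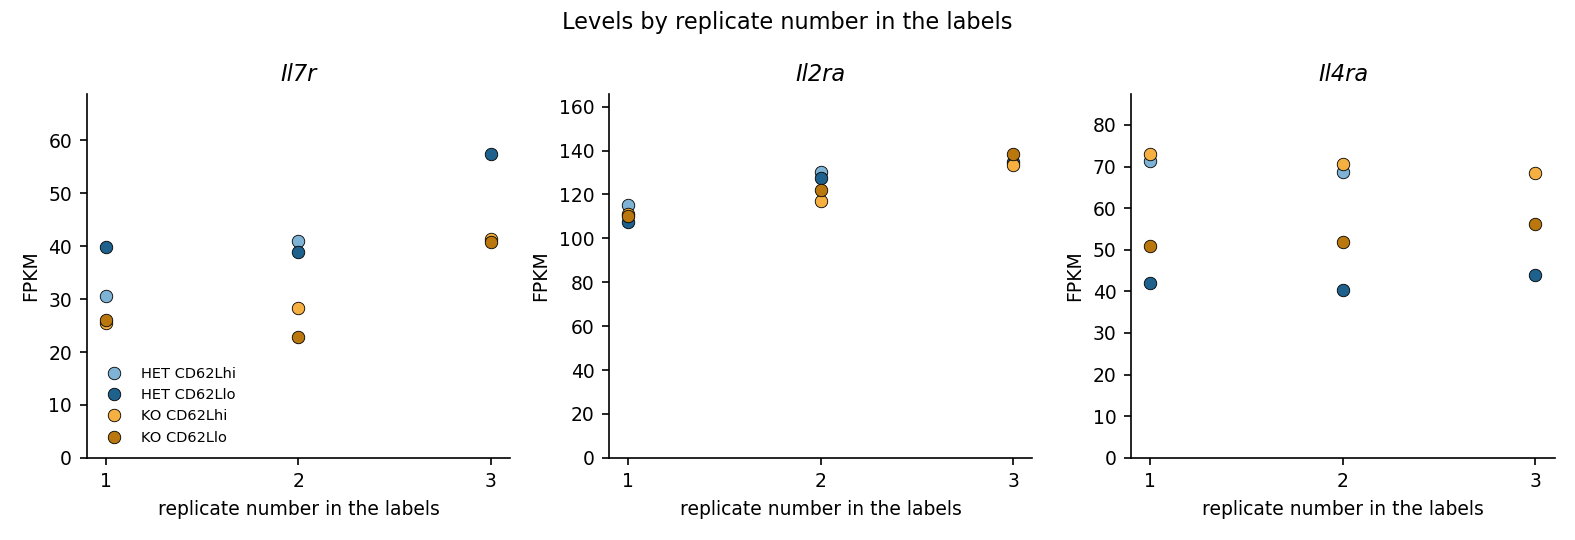
FPKM (vertical axis) of Il7r, Il2ra and Il4ra by the replicate number in the labels (horizontal axis), with 1 point per library, coloured by group. At each number Il7r is lower in KO CD62Llo than in HET CD62Llo, and Il2ra is lowest at replicate 1 in all 4 groups.

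In the CD62Lhi fraction 0 of the 7 receptor genes differed between genotypes in limma, and 0 had an unadjusted p under 0.05. Over all genes 0% passed after adjustment and 2.87% had an unadjusted p under 0.05. The differences ranged from -0.18 (Il2rb and Il7r) to 0.05 (Il15ra), and the widest interval was that of Il7r, -0.82 to 0.45. Groups did not overlap for Il2rb only, against 22.2% of all genes. This comparison rested on 2 HET and 3 KO libraries.

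Whether the fraction difference itself depended on the genotype was tested as an interaction, and 0 of the 7 genes passed (0.00875% of all genes did). Il4ra differed by 0.31 ± 0.08 (95% interval 0.13 to 0.49, unadjusted p = 0.0033, adjusted p = 0.314 in limma) and Il15ra by -0.25 ± 0.11 (-0.49 to -0.01, unadjusted p = 0.045, adjusted p = 0.644). These 2 were the ones with an unadjusted p under 0.05, against 7.59% of all genes, and both had the smaller fraction difference in KO. The comparisons share libraries, so the values of 1 gene in them are not independent. In the authors' deposited table of pooled groups, Il4ra stood at 82.1 in HET CD62Lhi, 47.5 in HET CD62Llo, 85.6 in KO CD62Lhi, against 61.3 in KO CD62Llo. Il7r stood there at 50.3, 58.7, 43.4 and 39.2. These pooled values are on another scale than the library values, and their normalization is not stated.

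The other chains that join these receptors were described from a list of 3, of which Il9r and Crlf2 were tested and Il13ra1 lay below the filter. Il9r, the IL-9 receptor, was 1.27 and 0.687 in HET CD62Lhi, 6.08, 3.24 and 4.62 in HET CD62Llo, 0.860, 0.573 and 0.935 in KO CD62Lhi, against 1.90, 2.26 and 1.66 in KO CD62Llo. It rose in CD62Llo by 1.50 ± 0.21 in HET and 0.72 ± 0.19 in KO and was lower in KO CD62Llo than in HET CD62Llo by -0.92 ± 0.19 (adjusted p of 7.8e-04, 0.031 and 0.028 in limma), at levels near the filter. Only 1.27 of its CD62Lhi values reached 1, so Il9r passed the filter through the CD62Llo libraries, where it is high. The call of Il9r in KO was lost with a pseudocount of 5, without the filter, under quantile normalization and without any 1 of the KO libraries other than CD62Llo replicate 3. The call between genotypes was lost with a pseudocount of 0.1, in the fit of the CD62Llo groups alone, with or without the replicate number as a block, and without HET CD62Llo replicate 1 or 3 or KO CD62Llo replicate 1 or 3. Crlf2, which pairs with the IL-7 receptor alpha chain to bind TSLP, was 26.5 to 49.8 over the libraries, and its differences did not pass the test.

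Ligand RNA was low in all groups. Of 8 ligand genes 3 were tested, Il2, Il4 and Il21, the others being below the filter. Il4 was 0.204 and 0 in HET CD62Lhi, 4.03, 5.54 and 2.95 in HET CD62Llo, 0, 0.151 and 0 in KO CD62Lhi, against 0.606, 1.07 and 0.783 in KO CD62Llo. It was lower in KO than in HET within CD62Llo by -1.48 ± 0.18 (adjusted p = 0.0039 in limma), without overlap. Il4 passed the filter through HET CD62Llo, where it is high, since only 1.07 of the KO values reached 1. This genotype difference is therefore a description and the p-value no support for it. Il21 rose in CD62Llo in both genotypes, to 3.46 ± 2.02 in HET and 2.89 ± 1.10 in KO from means of 0.122 and 0.125, and Il2 passed in KO alone, at 0.853 ± 0.54 against 0.035 ± 0.03. All 3 reached the filter through CD62Llo libraries alone, so the filter itself selected for their rise there. For Il2 these were only KO CD62Llo replicates 1 and 2 (1.14 and 1.19), with replicate 3 at 0.226. The pass of Il2 in KO is therefore a description and no support for a rise. The interaction of Il2 did not pass. Of the 3 ligands that passed in KO, 1 did so with a pseudocount of 5, under quantile normalization and when replicate 2 of KO CD62Llo, or replicate 1 or 3 of KO CD62Lhi, was left out.

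Downstream of the receptors, most signalling genes did not pass the test. Of 9 JAK and STAT genes 2 rose and 2 fell in HET CD62Llo, 1 rose and 1 fell in KO CD62Llo and 0 passed between the genotypes in CD62Llo, where 3 had an unadjusted p under 0.05. Over all genes 27.7%, 16.2% and 4.60% passed in these 3 comparisons, and 18.9% had an unadjusted p under 0.05 in the last. Jak1, the kinase bound to the cytokine-specific chains, fell from 161 ± 4.78 (SD, n = 2) to 136 ± 2.18 (n = 3) in HET and from 168 ± 7.92 to 149 ± 3.45 in KO. Jak2 rose from 26.5 ± 0.80 to 41.5 ± 1.52 and from 26.6 ± 1.35 to 37.0 ± 3.57. Jak3, the kinase bound to the shared chain, was 70.3 ± 8.17 against 85.4 ± 8.58 in HET and did not pass. Stat5a fell from 43.7 ± 0.42 to 36.6 ± 0.82 in HET, and Stat6, which carries the IL-4 signal, was 75.3 and 72.2 by its means there and did not pass. Medians of the list were -0.01 in both genotypes, beside 0.07 and 0.05 over all genes.

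Of 17 negative regulators of these receptors, 5 were higher and 1 lower in HET CD62Llo than in CD62Lhi, and 3 were higher and 0 lower in KO. Over all genes 27.7% passed in HET (18.8% higher and 8.88% lower) and 16.2% in KO (11.9% higher and 4.26% lower). Socs2, a suppressor of cytokine signalling, rose from 17.7 ± 0.53 to 33.6 ± 4.95 in HET and Socs1 fell from 78.5 ± 11.7 to 52.2 ± 7.81. Ptpn11, which encodes the phosphatase SHP2, rose in both, from 20.6 ± 0.39 to 36.4 ± 5.04 and from 20.4 ± 0.52 to 31.9 ± 3.11. In CD62Llo 0 of the 17 passed between the genotypes, and 3 had an unadjusted p under 0.05, against 4.60% and 18.9% of all genes. Of 15 tested genes of the PI3K and MAP kinase arm 2 rose and 3 fell in HET and 0 passed in KO, where 1 had an unadjusted p under 0.05. Beside these, 27.7% of all genes passed in HET and 16.2% in KO, where 29.3% had an unadjusted p under 0.05. Pik3cd, a catalytic subunit of PI3K in lymphocytes, fell from 148 ± 11.2 to 108 ± 10.3 in HET.

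Of 19 genes known as targets of IL-2 and STAT5, CD62Llo cells had 7 higher and 4 lower in HET and 7 higher and 1 lower in KO, while Il2ra itself, a textbook target, did not pass. Over all genes 18.8% were higher and 8.88% lower in HET, and 11.9% higher and 4.26% lower in KO. Icos, a costimulatory receptor, rose from 18.4 ± 2.26 to 116 ± 20.7 in HET and from 15.4 ± 2.67 to 52.6 ± 7.51 in KO. Gzmb, which encodes granzyme B, rose from 1.06 ± 0.16 to 32.2 ± 9.58 and from 0.973 ± 0.27 to 17.4 ± 3.65. Between the genotypes in CD62Llo 1 was higher in KO and 5 lower, against 1.36% and 3.25% of all genes. Bcl2, a survival factor, was 57.2 ± 7.42 in KO against 36.5 ± 0.99 in HET, and Prdm1, which encodes Blimp-1, 1.76 ± 0.59 against 6.08 ± 1.55. Medians of the list were 0.11, 0.12 and -0.09 in these 3 comparisons, beside 0.07, 0.05 and -0.03 over all genes. Many of these targets are also activation genes.

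Of 18 genes known to act on the receptor genes, such as Foxo, Runx, Ets and Ikaros family members, 4 rose and 4 fell in HET CD62Llo, 3 rose and 2 fell in KO CD62Llo, and 2 were higher and 1 lower in KO CD62Llo than in HET CD62Llo. Over all genes 27.7%, 16.2% and 4.60% passed in these 3 comparisons. Bach2, a repressor that holds T cells in a resting state, fell from 19.0 ± 0.74 to 8.96 ± 0.24 in HET and from 19.1 ± 0.73 to 13.8 ± 1.43 in KO, and was higher in KO than in HET within CD62Llo by 0.57 ± 0.07 (adjusted p = 0.0039 in limma). Ikzf1, which encodes Ikaros, had the same 3 directions, with means of 91.2, 67.3, 94.6 and 79.8 in HET CD62Lhi, HET CD62Llo, KO CD62Lhi and KO CD62Llo. Runx3 was lower in KO CD62Llo, 9.06 ± 1.12 against 13.1 ± 1.15.

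Receptors of other cytokine families were counted beside these. Of 16 tested among 21 listed, 6 rose and 4 fell between the fractions in each genotype, and 2 were higher and 3 lower in KO CD62Llo than in HET CD62Llo. Il23r, among those tested, was 0 to 0.071 in CD62Lhi and reached the filter through CD62Llo libraries alone. The filter itself thus selected for a rise of Il23r there. The shares of all genes that passed were 27.7% in HET, 16.2% in KO and 4.60% between the genotypes in CD62Llo. Il18r1, an IL-18 receptor chain, rose from 16.3 ± 0.10 to 51.0 ± 4.92 in HET and from 15.1 ± 0.66 to 25.9 ± 3.17 in KO. Ifngr2, an interferon gamma receptor chain, fell in HET from 30.3 ± 1.75 to 15.6 ± 1.26. Medians of that list were 0.25 in HET and 0.10 in KO, against 0.02 and -0.01 for the 7 common gamma chain genes, and this contrast of lists was not tested.

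The genes beside Il4ra and Il15ra were examined because the pairs diverged. Within 100 kb of Il4ra, Nsmce1 fell with it in HET (-0.40 ± 0.08, adjusted p = 0.0051 in limma) and did not pass in KO (-0.21 ± 0.07, adjusted p = 0.074), while Il21r and Gtf3c1 did not pass in either genotype. Near Il15ra, Fbxo18 rose in both genotypes (0.29 ± 0.06 and 0.26 ± 0.05, adjusted p of 0.0050 and 0.0080), and Il2ra and Ankrd16 did not pass. Near Il2rb, Kctd17 rose from 3.62 ± 0.09 (SD, n = 2) to 14.4 ± 2.21 (n = 3) in HET and from 3.14 ± 0.28 to 8.78 ± 0.88 in KO, while Il2rb itself did not pass. C1qtnf6 (0.79 and 0.52) and Tst (0.65 and 0.57) near Il2rb also rose in HET and KO, and Mpst and Rac2 did not pass. Over all genes 18.8% rose in HET and 11.9% in KO.

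**Figure D5:**
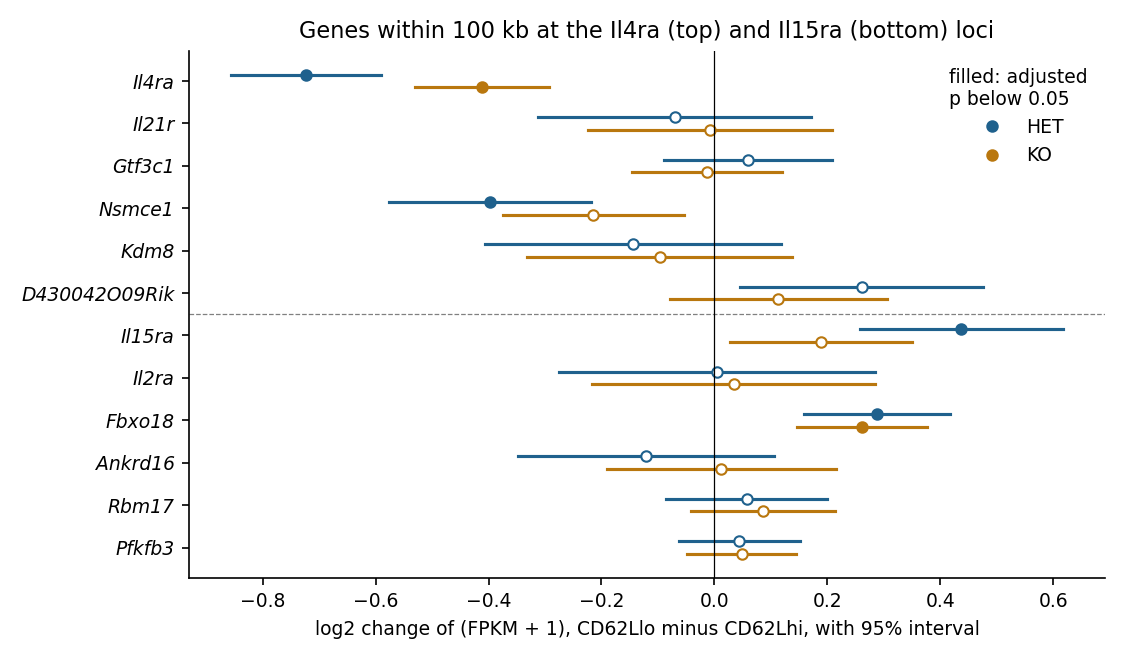
Difference between CD62Llo and CD62Lhi on the log2(FPKM + 1) scale (horizontal axis) with 95% intervals for Il4ra, Il15ra and the tested genes within 100 kb, in HET and KO, filled where the adjusted p was below 0.05. Il4ra lies at -0.72 and -0.41 with Il21r near 0, and Il15ra at 0.44 and 0.19 with Il2ra near 0.

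Patterns like those of single receptor genes were ranked over 7736 genes by Pearson r of log2(FPKM + 1) in the 11 libraries, as a description: the points share groups and libraries. Nearest to Il4ra were S1pr1 (r = 0.991), the receptor that guides exit from lymphoid organs, Aven (0.989) and Ly6c2 (0.988). Nearest to Il15ra were Fbxo22 (0.975), Atg7 (0.972) and Dpp7 (0.971). The best matches of the other 5 were less close: Zbtb33 for Il7r (0.943), Map2k5 for Il21r (0.929), Dnaja1 for Il2rb (0.923), Cisd2 for Il2ra (0.909) and Ctso for Il2rg (0.856).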

How the data were processed

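Poly(A) RNA of the sorted cells was sequenced as single ends, per the labels' protocols. The authors deposited 1 FPKM value per gene and library, made on mm10 with Cufflinks 2.1.1 after TopHat, CASAVA 1.8.2 and FastQC, which the submitters' processing notes name without settings. Read counts were not used here, so depth is unknown. The deposited FPKM came with interval bounds, and 52 of the 77 member values exceeded the upper bound given for them, which no source used here explains. An alternative, chosen after seeing the data, used the interval midpoint.

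In R 4.3.3, limma 3.58.1 (empirical Bayes with a trend) was fitted to log2(FPKM + 1) with 4 group means over 11 libraries for the 11431 genes that reached an FPKM of 1 in 2 or more libraries. A low gene could pass this filter only through the group where it is high, and the list and marker counts include such genes. Benjamini-Hochberg adjustment ran over all of them, with a threshold of 0.05. On simulated data with 200 changed genes among 11431, changes of 0.5 and 1 (log2) were recovered in 63.6% and 93.4% for the HET fractions, 65.7% and 94.3% for the KO fractions, 62.1% and 89.0% for the genotypes in CD62Lhi, and 69.3% and 92.2% in CD62Llo. The simulated noise was normal and independent between genes, and recovery depends on the 200 planted changes. These shares therefore do not give the power where another number of genes changed, such as in CD62Lhi, where none passed.

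All 7 members are named. Of each list, up to 4 genes per comparison that passed with the largest change and a mean FPKM of at least 2 were eligible, or the 2 highest if none passed; ligands, partner chains, JAK and STAT genes, Ezh2, Foxp3, Il9r and Crlf2 could always be named, as could genes within 100 kb of a member; 1 other gene of the rule is not reported here. Marker genes Cd79a, Lyz2, Cd8b1 and Nkg7 were picked out later, with their values known, and so was Il23r, for its passage through the filter. The members and lists were chosen with earlier results of these data known.

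Replicate numbers are shared by the groups' labels. Deviations of same-numbered HET and KO CD62Llo libraries from their group means correlated at 0.165, 0.153 and 0.148, which pairs them by correlation and by no label. The rule was over 0.1 in 3 pairs, which HET CD62Lhi with 2 libraries could not meet. KO CD62Lhi and KO CD62Llo missed it with 0.131, 0.068 and 0.178, and KO CD62Lhi and HET CD62Llo with 0.0046, -0.042 and -0.0039. The rule therefore cannot show that the fractions of a genotype are unpaired. Alternatives covered the pseudocount, filter, scaling, groups fitted, trend, replicate block and each library left out. HET CD62Lhi replicate 3 had 589 of 23846 gene entries above 0.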

Additional observations from a re-analysis of the deposited data

How the results depend on the processing

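The falls of Il4ra between the fractions (log2 differences from -0.82 to -0.67 in HET and from -0.48 to -0.38 in KO) and the rise of Il15ra in HET (0.30 to 0.49) passed the threshold in all 21 alternatives. The higher Il4ra in KO CD62Llo passed in 19 of 22. The count of receptor genes that passed there was 1 in the design used, 0 in the fit of the 2 groups alone, 2 with the replicate block and 0 with the block in the CD62Llo groups alone, an alternative chosen after seeing the data; leaving out 1 library gave 0 to 1. Between the KO fractions leaving out 1 library gave 1 to 2. The block changed no other call of a receptor gene. Over all genes the count in CD62Llo was 526, against 109 for the 2 groups alone, 48 with the block in them, and 182 to 610 with 1 library left out; between fractions with 1 library left out it was 1916 to 3337 in HET (3163) and 1187 to 1974 in KO (1852); in CD62Lhi it was 0, against 5 for the 2 groups alone and 0 to 5 with 1 library left out; for the interaction it was 1, against 10 with a pseudocount of 5, 4 with no filter, 3 without the trend and 1 to 5 with 1 library left out. Quantile normalization and median centring moved the median of all genes between the HET fractions by -0.10 and -0.09.

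List counts moved by over 1.5 times too. With 1 library left out they were, between the HET fractions and lowest without a HET CD62Lhi library, 2 to 4 (4 with all) for JAK and STAT genes, 1 to 5 (5) for the PI3K and MAP kinase arm, 2 to 7 (6) for negative regulators, 7 to 12 (11) for targets and 5 to 10 (8) for receptor gene regulators. Between the KO fractions they were 1 to 3 (3) for ligands, 1 to 2 (2) for JAK and STAT genes and 4 to 9 (8) for targets. Between genotypes in CD62Llo they were 3 to 7 (6) for targets, 1 to 4 (3) for receptor gene regulators and 3 to 7 (5) for other receptors; the fit of these groups alone gave 3, 1 and 3, and 3, 0 and 3 with the block, which also lost the 1 ligand. The PI3K and MAP kinase count in KO went from 0 to 1 under quantile normalization and 2 under centring or the block, and in HET to 3 in the fit of the 2 groups. Between genotypes in CD62Llo, JAK and STAT genes went from 0 to 1 (centring, block), the PI3K and MAP kinase arm from 0 to 1 (quantile, centring) or 2 (block), and negative regulators from 0 to 1 (block). Partner chains went from 1 to 2 with the block between fractions. The stricter filter left 0 ligands and partner chains called.

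Signs turned only for differences that did not pass. They did so for Il2ra in HET under quantile normalization (-0.0075), centring (-0.089) and the block (-0.070), for Il2rb (-0.021) and Il2rg (-0.071) in HET, Il2ra in KO (-0.038) and Il2rg between genotypes in CD62Llo (0.019) under centring, and between genotypes in CD62Lhi for Il2rg under quantile normalization (-0.0070) and Il4ra with the block (-0.0039). With 1 library left out, Il2ra ranged from -0.083 to 0.099 in HET, -0.049 to 0.11 in KO, -0.11 to 0.063 between genotypes in CD62Lhi, -0.090 to 0.082 in CD62Llo and -0.064 to 0.12 for the interaction. Il2rb ranged from -0.032 to 0.18 in HET and -0.020 to 0.19 for the interaction, Il2rg from -0.067 to 0.0080 in KO and -0.046 to 0.022 between genotypes in CD62Llo, and Il7r from -0.33 to 0.11 in KO and -0.39 to 0.022 between genotypes in CD62Lhi. Il4ra ranged from -0.012 to 0.038 between genotypes in CD62Lhi, and Il21r from -0.13 to 0.053 in KO, -0.042 to 0.14 between genotypes in CD62Lhi and -0.057 to 0.12 for the interaction. The cause was not tested. Groups of 2 or 3 libraries and an unknown depth limit what differences could be detected, with the widest intervals for Il7r.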
